A study of Mus musculus with 9 samples.

Results

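The potassium channel genes described here are the genes whose symbol is Kcn followed by letters and a final number, with the exception of Kcnj10 and Kcnj13. The symbol rule took 89 of the 33586 entries of the deposited expression table. An FPKM (fragments mapped per kilobase of transcript, scaled to the fragments mapped in the library) of at least 1 was reached by 66 of the 89 genes in 3 or more libraries out of 9, and 23 genes fell short of this. The 66 are called the tested genes, and they stood among 14570 tested genes in all. The tested genes were thus chosen by their FPKM level in these same libraries, and the family and its exceptions were proposed with earlier results of these data known. Just inside the threshold were Kcne4, at 1 FPKM or more in 3 libraries, and Kcnb2, in 4 libraries. Just outside it were Kcnk10 and Kcnj5, in 1 library each, and Kcnmb2, whose highest value was 0.879 FPKM.

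The libraries come from mouse brain RNA in a model of intracerebral haemorrhage, in which injected collagenase, an enzyme, breaks down the wall of blood vessels. The tissue was taken next to the haematoma, and the labels name 3 groups of 3 libraries, called control, experimental and intervention. The series title names a tetrahedral nucleic acid carrier loaded with miR-124, a microRNA that neurons make in abundance, for treating the haemorrhage. What each group received, the control included, and the strain, sex and age of the mice and the time of sampling are not stated in the labels used here.

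Potassium channels let potassium ions leave or enter cells along their gradient and set the resting voltage, the shape of the action potential and the firing rate of neurons. The voltage-gated (Kv) channels open on depolarization, the inward rectifiers and the two-pore channels carry current near rest, and other channels open when calcium or sodium rises inside the cell. Auxiliary subunits change the gating or the traffic of the pore-forming subunits. In brain, glia also use potassium channels to clear the ion from the space around active neurons, and microglia and vessel walls have channels of their own.

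The 9 libraries were alike in the number of potassium channel genes detected, and they differed in the summed level of these genes. Between 60 and 66 of the 89 genes reached 1 FPKM in a library. Their summed level was 775.2, 818.3 and 702.5 FPKM in control libraries 1, 2 and 3. It was 595.7, 516.5 and 535.8 FPKM in the experimental libraries and 521.6, 540.3 and 640.5 FPKM in the intervention libraries. Each control library was higher than each of the other 6. Sequencing depth is unknown, since the values are FPKM and no counts were used. The labels do not say that replicates were separate animals, and p-values then measure only the spread between these samples.

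The members with the highest mean level over the 9 libraries were Kcnab2, a beta subunit of Kv1 channels, with a mean of 52.2 FPKM, and Kcnk1, a two-pore channel, with 39.9 FPKM. Kcnj4, an inward rectifier of forebrain neurons, followed with 34.2 FPKM. Next came the calcium-binding Kv4 partner Kcnip2 and Kcnj9, a subunit of channels opened by G proteins, with 26.1 FPKM each. The order differed between groups: in control libraries Kcnj4 (42.5 FPKM) was level with Kcnk1 (42.3 FPKM), and in experimental libraries Kcnip3 (23.5 FPKM) stood above Kcnj9 (21.1 FPKM). FPKM is a level per transcript length, so that these levels may be set side by side.

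The experimental group was compared with the control group to ask which potassium channel genes differ between them. Most genes that differed were lower in the experimental group, among them the A-type channel gene Kcnd2 and its partner Kcnip4, the Kv3 genes Kcnc1, Kcnc2 and Kcnc4, and the beta subunit gene Kcnab1. Kcnk6, Kcnj16 and Kcnip3 were higher. By limma with Benjamini-Hochberg adjustment over all 14570 genes, 30 of the 66 tested genes fell and 3 rose. Over all tested genes, 37.2% were called, 17.3% lower and 19.9% higher. The median log2 fold change of FPKM + 1 was -0.43 over the 66 genes and -0.03 over all tested genes. The called decreases ran from -0.92 in Kcnab1 to -0.35 on the log2 scale. Folds given with limma results here and below are ratios of FPKM + 1, which understate the change of low genes. The control and experimental libraries did not overlap in 36 genes that were lower and 3 that were higher, against 25.5% and 25.7% of all tested genes.

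**Figure D1:**
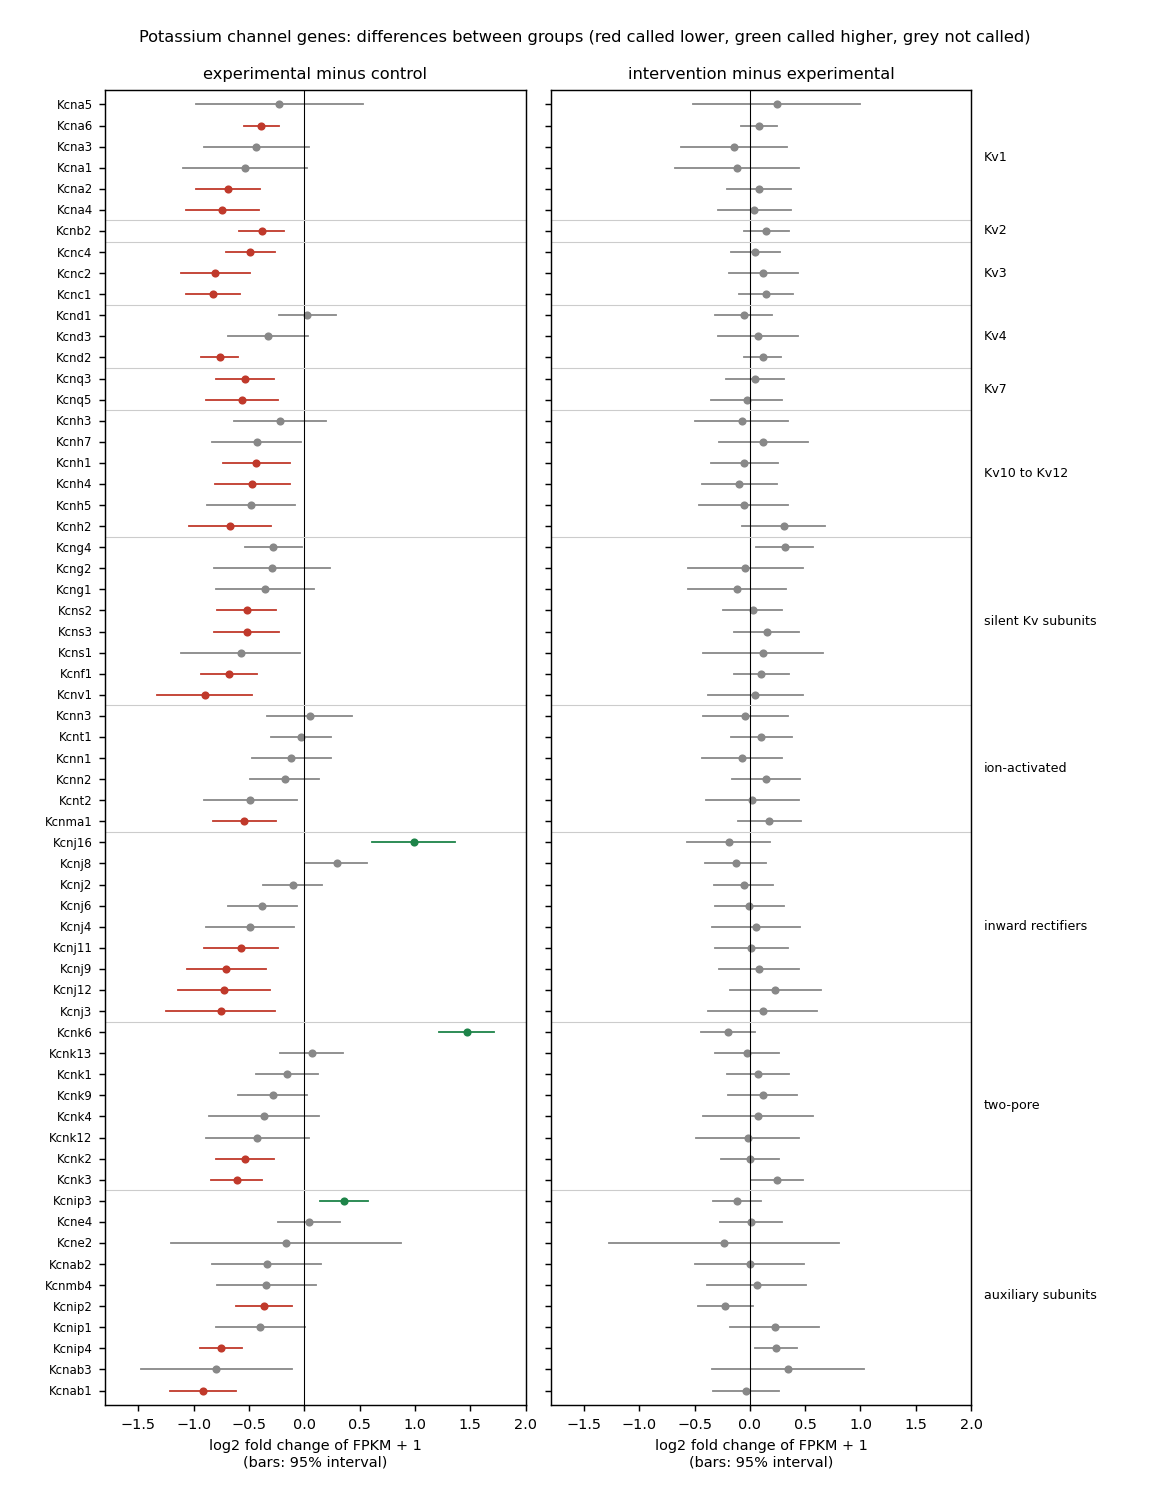
Log2 fold change of FPKM + 1 (x axis) of 62 of the 66 tested potassium channel genes (y axis, by family), for experimental minus control on the left and intervention minus experimental on the right. Points are estimates and bars 95% intervals from limma; the 27 red genes were called lower, the 3 green genes higher, and no gene is coloured on the right.

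Of 10 general neuronal markers such as Syp, Snap25 and Syt1, 9 fell, with a median log2 fold change of -0.59, and Map2 did not pass (-0.04). Of the markers of single neuron types, 0 of 8 cortical excitatory, 0 of 10 striatal, 3 of 6 thalamic and 3 of 8 interneuron markers were called lower. Their median log2 fold changes were -0.32, -0.96, -0.73 and -0.68 in this order. The striatal markers thus had the lowest median of these lists with 0 calls. The summed level of the 10 general neuronal markers was 1036 to 1100 FPKM in control, 652.6 to 731.2 FPKM in experimental and 752.6 to 790.8 FPKM in intervention libraries. None of these markers was at 0. In tissue samples, fewer cells of a type and less RNA per cell cannot be told apart, and the part of the neuronal markers in the differences of the channel genes was not tested. Libraries also differed in markers of brain regions. The summed level of 10 striatal markers ranged from 169.4 to 497.7 FPKM in control and from 58.6 to 313.1 FPKM in experimental libraries. This sum was lowest within both groups in library 1. Without these 2 libraries 24 channel genes were lower and 2 higher. Over all tested genes that fit called 1257 lower and 2286 higher, in place of 2521 and 2894. FPKM values were also rescaled to TPM, a unit that gives every library the same sum, and this moved the median over all tested genes to -0.18. In TPM, 41 channel genes were lower and 2 higher, and over all tested genes 4661 were lower and 2175 higher, in place of 2521 and 2894.

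The bases before the start of 4 genes are shown because these genes changed with small p-values in opposite directions. Kcnd2, Kcnc1 and Kcnf1 fell and have 1 start in the RefSeq promoter table, while Kcnj16 rose and has 4, of which the most upstream is shown. Each run holds the 250 bases before the start, 5′ to 3′ on the gene's strand, from RefSeq (GRCm38.p6, the build also called mm10). Capitals mark the GC box GGGCGG on either strand, a motif bound by Sp1 family factors. The regions are chr6:21215096-21215345 (+ strand), chr7:46396218-46396467 (+), chr12:17176889-17177138 (- strand) and chr11:110967783-110968032 (+).
Kcnd2: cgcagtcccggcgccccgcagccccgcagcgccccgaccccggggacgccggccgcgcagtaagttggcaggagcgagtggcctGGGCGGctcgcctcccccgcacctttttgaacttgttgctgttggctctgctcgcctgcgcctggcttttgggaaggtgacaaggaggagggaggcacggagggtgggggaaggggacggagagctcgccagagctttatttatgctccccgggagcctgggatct
Kcnc1: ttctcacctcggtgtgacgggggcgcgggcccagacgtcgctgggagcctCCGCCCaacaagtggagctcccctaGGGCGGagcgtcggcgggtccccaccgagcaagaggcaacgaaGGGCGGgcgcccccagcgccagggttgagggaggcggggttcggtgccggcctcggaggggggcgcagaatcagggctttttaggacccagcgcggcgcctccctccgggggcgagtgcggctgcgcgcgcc
Kcnf1: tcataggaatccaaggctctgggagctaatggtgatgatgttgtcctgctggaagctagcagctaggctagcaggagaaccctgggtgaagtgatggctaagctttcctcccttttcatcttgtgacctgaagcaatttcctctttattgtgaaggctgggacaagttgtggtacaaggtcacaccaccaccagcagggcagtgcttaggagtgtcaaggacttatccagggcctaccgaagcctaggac
Kcnj16: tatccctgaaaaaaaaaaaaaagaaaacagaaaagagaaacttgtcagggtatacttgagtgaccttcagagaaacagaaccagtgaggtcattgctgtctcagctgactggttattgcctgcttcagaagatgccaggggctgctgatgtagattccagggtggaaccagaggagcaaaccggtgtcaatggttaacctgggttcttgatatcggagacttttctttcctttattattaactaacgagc
Kcnd2 had 1 GC box and Kcnc1 had 3, while Kcnf1 and Kcnj16 had 0. The share of G and C was 68.8% in Kcnd2, 74.4% in Kcnc1, 51.2% in Kcnf1 and 42.8% in Kcnj16. Over the 46 tested channel genes with an entry, 50.0% held a GC box, against 59.6% of 10482 tested genes, and 12 of 21 genes called lower held one. The TATA box TATAAA, searched on both strands, was in 1 of the 46, against 6.24% of the tested genes. No match says only that these letters are not in this window.

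Kcnd2 encodes the Kv4 subunit that carries the fast A-type current of dendrites. It lies on chromosome 6 at 21215503 to 21729805 (mm10, GENCODE M21, ENSMUSG00000060882.5). It was at 21.4, 22.9 and 21.9 FPKM in control, 12.7, 12.6 and 12.4 FPKM in experimental, and 12.3, 14.3 and 14.6 FPKM in intervention libraries. Every control library was higher than every other library, and the experimental libraries differed little from each other. The log2 fold change was -0.77 ± 0.08 (SE), or 1.70-fold lower (limma adjusted p = 4.84e-05). The other Kv4 genes did not pass. Kcnd3 was at 7.74 ± 1.70 FPKM in control libraries and 5.89 ± 0.856 FPKM in experimental ones (mean ± SD, n = 3), and Kcnd1 at 1.87 ± 0.378 and 1.91 ± 0.226 FPKM.

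The Kv channel-interacting proteins, calcium sensors that bind Kv4 subunits, differed in direction among themselves. Kcnip4 was at 23.2, 19.8 and 20.9 FPKM in control, 13.0, 12.2 and 11.3 FPKM in experimental, and 14.0, 15.7 and 13.9 FPKM in intervention libraries. The 3 groups did not overlap, with the intervention libraries between the others. Kcnip4 fell 1.69-fold between control and experimental libraries (log2 fold change -0.76 ± 0.09, limma adjusted p = 0.000118). Kcnip2 fell 1.28-fold (limma adjusted p = 0.0304), a call that ended on leaving out control 1, control 2, experimental 2 or experimental 3 (highest adjusted p 0.106). Kcnip3, which also acts as the transcriptional repressor DREAM, rose from 18.1 ± 1.69 to 23.5 ± 2.42 FPKM (log2 fold change 0.36 ± 0.10, limma adjusted p = 0.0162). The Kcnip3 call ended without control 1, control 2 or experimental 3 (highest adjusted p 0.0629), without control 1 and experimental 1 together (0.122) and after rescaling to TPM (0.139). Kcnip1 was at 4.90 ± 0.886 and 3.51 ± 0.903 FPKM and did not pass.

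Kcnc1, Kcnc2 and Kcnc4, genes of Kv3 channels, which close fast and let neurons fire at high rates, were lower in the experimental group. Kcnc1 lies on chromosome 7 at 46396497 to 46438704. It was at 19.4, 16.9 and 17.4 FPKM in control, 9.47, 8.998 and 10.5 FPKM in experimental, and 9.02, 11.4 and 12.01 FPKM in intervention libraries. Control libraries lay above all others, and the other groups overlapped. Kcnc1 fell 1.77-fold (log2 fold change -0.82 ± 0.11, limma adjusted p = 0.000324), and Kcnc2 fell 1.75-fold (adjusted p = 0.00175). Kcnc4 fell 1.40-fold, from 19.6 ± 2.08 to 13.7 ± 1.40 FPKM (limma adjusted p = 0.00418). Kcnc1, Kcnc2 and the silent subunit gene Kcns3 form the list of genes known from fast-spiking interneurons. All 3 fell, beside 17.3% called lower over all tested genes. Of 8 interneuron markers, 3 fell as well, with a median log2 fold change of -0.68 and a summed level of 343.3 to 406.4 FPKM in control and 189.1 to 259.6 FPKM in experimental libraries. The part of these cells in the differences was not tested.

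Of 6 tested Kv1 genes, whose channels sit in axons and limit repetitive firing, 3 fell, beside 17.3% called lower over all tested genes. Kcna2 was at 17.4, 17.1 and 15.9 FPKM in control, 10.7, 8.43 and 11.1 FPKM in experimental, and 8.72, 11.3 and 12.2 FPKM in intervention libraries. Again each control library exceeded the other 6. Kcna2 fell 1.61-fold (log2 fold change -0.69 ± 0.13, limma adjusted p = 0.00265), and Kcna4, an inactivating Kv1 subunit, fell 1.67-fold (adjusted p = 0.00369). Kcna6, the most abundant Kv1 gene here, fell 1.31-fold, from 18.7 ± 0.640 to 14.0 ± 1.005 FPKM (limma adjusted p = 0.00233). Kcna1, the subunit mutated in human episodic ataxia with myokymia, was at 11.2 ± 1.77 and 7.44 ± 1.38 FPKM and did not pass (limma adjusted p = 0.121). Its 95% interval ran from -1.10 to 0.03 on the log2 scale.

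The beta subunits of Kv1 channels differed in how firmly they could be called. Kcnab1 lies on chromosome 3 at 65109384 to 65378223. It was at 11.6, 15.4 and 12.2 FPKM in control, 5.82, 6.10 and 7.34 FPKM in experimental, and 6.23, 5.26 and 7.29 FPKM in intervention libraries. It had the largest called decrease of the 66 genes on the log2 scale, with control libraries apart from all others (-0.92 ± 0.13, 1.89-fold, limma adjusted p = 0.000603). Kcnab3 was at 27.8, 27.0 and 14.7 FPKM in control libraries and 18.9, 9.99 and 10.1 FPKM in experimental ones. The groups overlapped through control 3 and experimental 1, and Kcnab3 did not pass (-0.79 ± 0.31, limma adjusted p = 0.0674). Kcnab2 was at 68.4, 67.2 and 46.6 FPKM and at 63.9, 40.9 and 39.8 FPKM in the same libraries. The same libraries overlapped in Kcnab2 (-0.34 ± 0.22, limma adjusted p = 0.252).

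**Figure D2:**
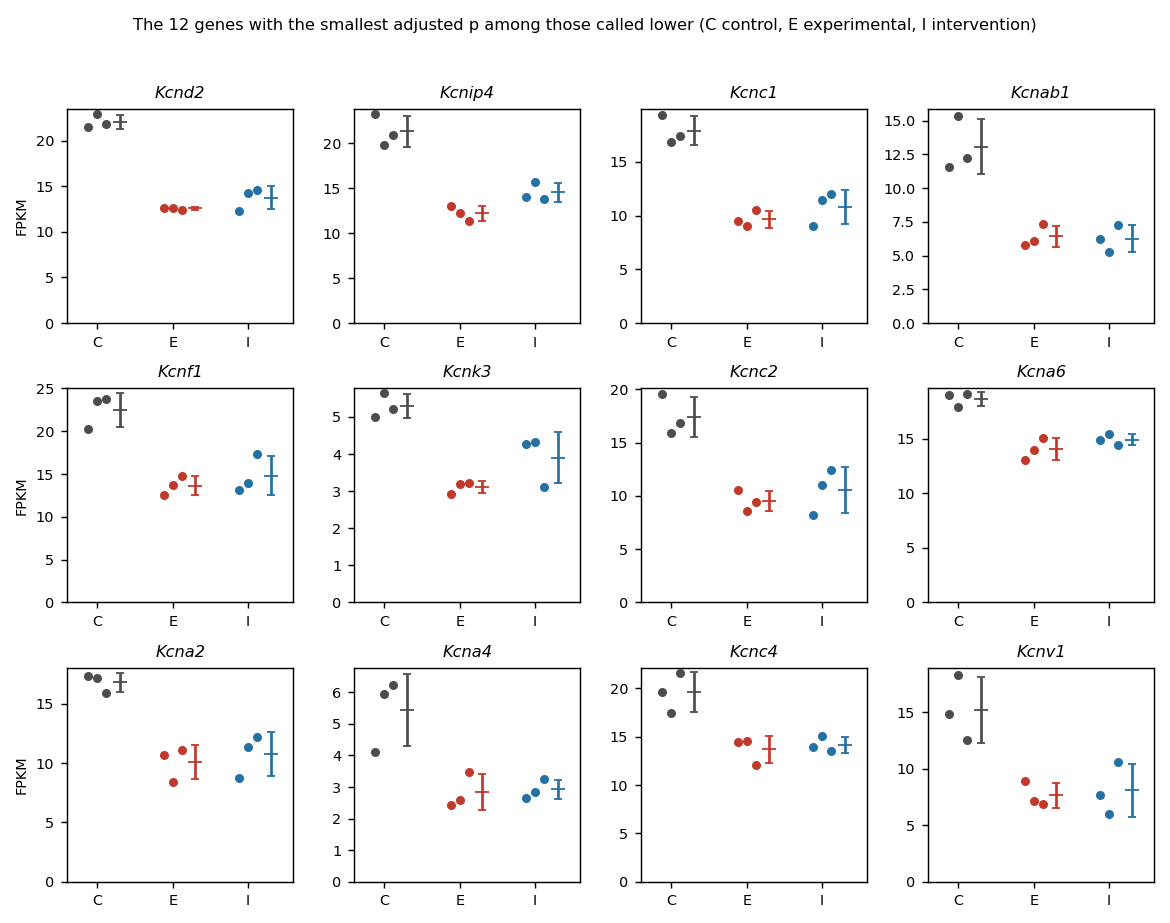
FPKM (y axis, from 0) in each library of the 12 genes with the smallest adjusted p among those called lower in the experimental against the control group. Each point is 1 library of control (C), experimental (E) or intervention (I), and the bar beside the points is the mean ± SD of 3 libraries; in every panel the 3 control points lie above the 3 experimental points.

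Kcnb2, a Kv2 gene, whose channels carry the delayed rectifier current of cell bodies, fell. It entered the test through the control group, where it was high: it reached 1 FPKM in all 3 control libraries, 0 experimental libraries and 1 intervention library. It was at 1.36 ± 0.0290 and 0.805 ± 0.109 FPKM (limma adjusted p = 0.0083). Silent subunits form no channel alone and change the currents of Kv2 subunits. Of 8 tested genes of this kind 4 fell, beside 17.3% called lower over all tested genes. Kcnf1 was at 20.2, 23.5 and 23.7 FPKM in control, 12.5, 13.7 and 14.7 FPKM in experimental, and 13.1, 14.0 and 17.3 FPKM in intervention libraries. Control libraries of Kcnf1 stood above the rest (1.60-fold lower in the experimental group, limma adjusted p = 0.00126). Kcnv1, from 15.3 ± 2.92 to 7.65 ± 1.13 FPKM, fell 1.87-fold (limma adjusted p = 0.00520), and Kcns2 and Kcns3 fell 1.43-fold and 1.44-fold.

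Kv7 subunits carry the M current, which restrains firing and is closed by muscarinic receptors. Of these genes, Kcnq3 fell 1.45-fold and Kcnq5 1.48-fold (limma adjusted p = 0.00601 and 0.0129). Over all tested genes 17.3% were called lower, and of 6 tested genes of the ether-a-go-go family (Kv10 to Kv12) 3 fell. They were Kcnh2, the human cardiac long QT gene, at 10.2 ± 1.86 and 6.09 ± 1.48 FPKM (limma adjusted p = 0.0111), Kcnh1 and Kcnh4. Kcnh3 was the most abundant of the family at 19.4 ± 4.52 and 16.4 ± 2.72 FPKM, and it did not pass (limma adjusted p = 0.380). Leaving out 1 library in turn ended the Kcnh1 call 5 times and the Kcnh4 call 4 times (highest adjusted p 0.0997 and 0.118).

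Of the 9 tested inward rectifier genes 4 fell and 1 rose, beside 17.3% called lower and 19.9% called higher over all tested genes. Kcnj3 and Kcnj9, subunits of channels that inhibitory G protein-coupled receptors open, fell 1.69-fold and 1.63-fold (limma adjusted p = 0.0230 and 0.00741). Kcnj11, the pore of the ATP-sensitive channel, fell 1.49-fold (limma adjusted p = 0.0141). Leaving out 1 library in turn ended the Kcnj3 call 4 times and the Kcnj11 call 2 times (highest adjusted p 0.0785 and 0.0519). Kcnj12, a strong inward rectifier, fell 1.65-fold, with 4.09, 4.14 and 4.59 FPKM in control libraries and 1.36, 2.31 and 3.12 FPKM in experimental ones (limma adjusted p = 0.0126). Kcnj4, the most abundant inward rectifier, was at 32.3, 54.3 and 40.7 FPKM in control libraries and 29.5, 28.9 and 29.5 FPKM in experimental ones. Its groups did not overlap, and it did not pass (limma adjusted p = 0.0550), but it was called lower in TPM (adjusted p = 0.0141) and without control 1 (0.0166), intervention 2 (0.0483) or intervention 3 (0.0456).

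Over all tested genes 37.2% were called, and of 6 tested genes of channels opened by ions only Kcnma1, the large-conductance calcium-activated channel, passed. It was at 10.5 ± 0.767 and 6.87 ± 0.488 FPKM (1.46-fold lower, limma adjusted p = 0.00850). Kcnt1, a sodium-activated channel and the most abundant of this family, was at 9.65, 11.4 and 13.2 FPKM in control libraries and 11.05, 10.8 and 11.47 FPKM in experimental ones. The experimental libraries lay within the control range, and the 95% interval of the log2 fold change ran from -0.30 to 0.24. The small-conductance channel genes Kcnn1, Kcnn2 and Kcnn3 did not pass, with log2 fold changes from -0.18 to 0.05.

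Of 8 tested genes of two-pore channels, which carry the leak current, 2 fell and 1 rose, beside 37.2% called over all tested genes. Kcnk3, an acid-sensitive channel, was at 5.005, 5.64 and 5.22 FPKM in control, 2.91, 3.20 and 3.23 FPKM in experimental, and 4.28, 4.32 and 3.11 FPKM in intervention libraries. Control libraries were the highest, and intervention 3 lay within the experimental range (experimental against control 1.53-fold lower, limma adjusted p = 0.00159). Kcnk2, a mechanosensitive channel of neurons and astrocytes, fell 1.45-fold from 12.3 ± 1.91 to 8.15 ± 1.05 FPKM (limma adjusted p = 0.00618). Kcnk1 was at 42.3 ± 6.02 and 37.6 ± 3.27 FPKM and did not pass, with a 95% interval from -0.44 to 0.13.

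Kcnk6 had the largest log2 fold change in either direction among the 66 genes. It encodes a two-pore channel found in endosomes and lysosomes, and lies on chromosome 7 at 29221926 to 29232515. It was at 0.664, 0.865 and 0.933 FPKM in control, 3.54, 3.79 and 4.81 FPKM in experimental, and 3.53, 3.56 and 3.03 FPKM in intervention libraries. All control libraries lay under 1 FPKM, so that Kcnk6 entered the test through the other 2 groups. The log2 fold change was 1.47 ± 0.11, or 2.76-fold on the FPKM + 1 scale (limma adjusted p = 8.05e-06). Kcnj16, which pairs with the astrocyte channel Kcnj10, was at 2.99, 2.90 and 4.27 FPKM in control, 6.77, 7.48 and 8.70 FPKM in experimental, and 6.03, 8.53 and 5.40 FPKM in intervention libraries. Each control library was lower than the other 6. It rose 1.98-fold (log2 fold change 0.99 ± 0.17, limma adjusted p = 0.00149).

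Of the channels known from microglia and macrophages, Kcnk13, Kcnk6, Kcnn4, Kcna3 and Kcnj2, 4 were tested and Kcnk6 alone passed, beside 37.2% called over all tested genes. All 8 microglia and macrophage markers rose, with a median log2 fold change of 2.19 and a summed level of 77.2 to 87.5 FPKM in control, 423.7 to 504.4 FPKM in experimental and 320.6 to 438.1 FPKM in intervention libraries. Kcnk13, the channel that sets the resting voltage of microglia, was at 3.99, 3.46 and 4.14 FPKM in control libraries and 3.12, 4.58 and 4.68 FPKM in experimental ones. The groups overlapped, with a 95% interval from -0.22 to 0.35 and a sign that turned in TPM and with quantile normalization. Kcna3, a channel of T cells and microglia that neurons also express, was at 2.22 ± 0.503 and 1.40 ± 0.546 FPKM (limma adjusted p = 0.140), and Kcnj2 was at 2.98 ± 0.492 and 2.69 ± 0.339 FPKM (0.509). The part of microglia and astrocytes in the rises of Kcnk6 and Kcnj16 was not tested. Of 8 astrocyte markers 7 rose, with a summed level of 431.5 to 456.5 FPKM in control and 958.0 to 1285 FPKM in experimental libraries.

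Kcnn4, the calcium-activated channel of immune cells, lay under the filter. It was at 0.0362, 0.0476 and 0.0267 FPKM in control, 0.298, 0.287 and 0.301 FPKM in experimental, and 0.112, 0.195 and 0.224 FPKM in intervention libraries. The 3 groups did not overlap, and the ratio of mean FPKM between experimental and control libraries was 8.01 (exact permutation p = 0.1, the smallest that 3 against 3 allows). With no filter on low values, limma called Kcnn4 higher (adjusted p = 0.00081).

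The channel genes known from vessel walls did not pass. Kcnj8, the pore of the ATP-sensitive channel of pericytes, was at 2.54, 2.37 and 2.01 FPKM in control libraries and 3.36, 3.57 and 2.31 FPKM in experimental ones. Experimental 3 overlapped the control libraries (log2 fold change 0.29 ± 0.12, limma adjusted p = 0.0900), and Kcnj8 was called higher without it (adjusted p = 0.0094). Kcna5 was at 1.68, 2.95 and 4.21 FPKM and at 0.842, 3.52 and 3.14 FPKM, and Kcne4 was at 0.863 ± 0.0793 and 0.923 ± 0.207 FPKM. Neither differed beyond its spread (limma adjusted p = 0.627 and 0.820). Kcnmb1, the beta subunit of smooth muscle, was under the filter at 0.446 ± 0.0872 and 0.432 ± 0.111 FPKM. Of 5 markers of mural cells 3 rose, with a summed level of 42.5 to 56.1 FPKM in control and 79.3 to 85.5 FPKM in experimental libraries.

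**Figure D3:**
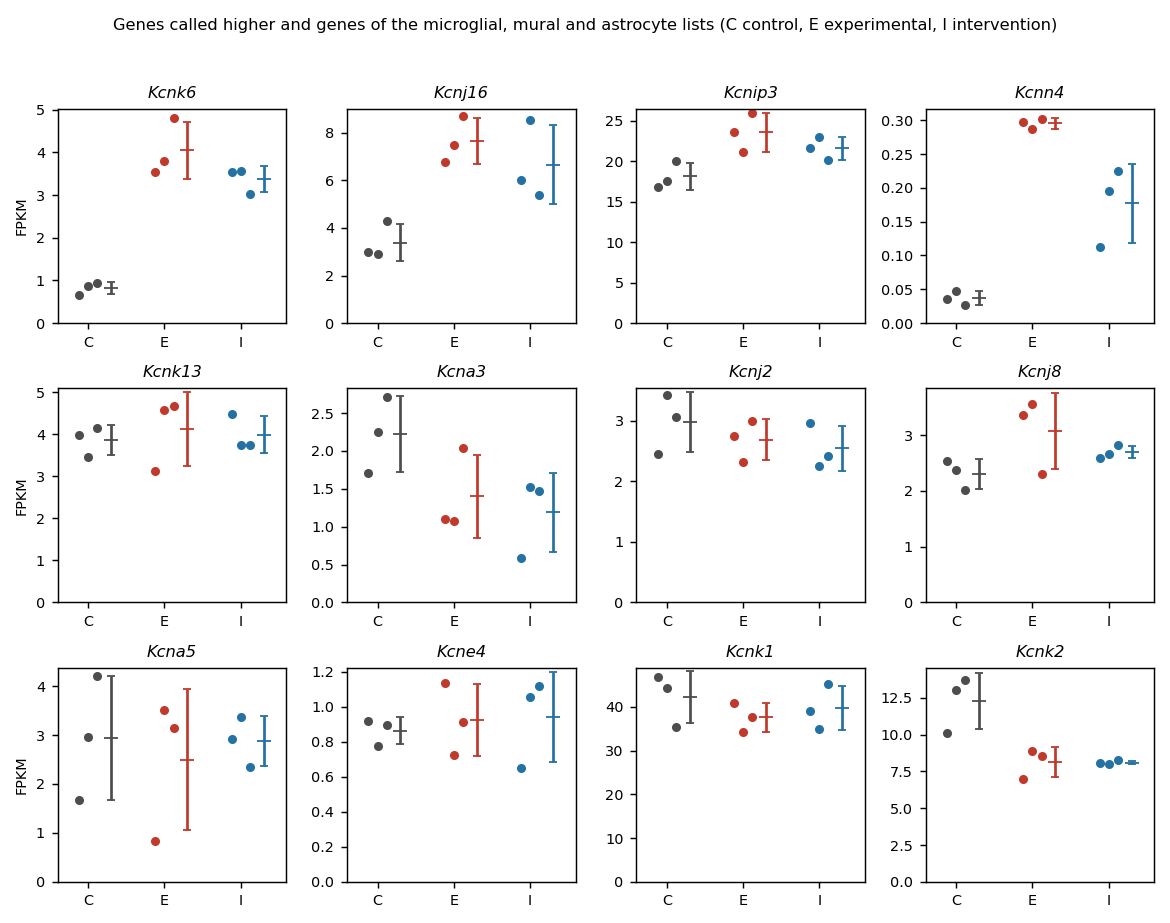
FPKM (y axis, from 0) in each library of the 3 genes called higher (Kcnk6, Kcnj16, Kcnip3), of Kcnn4 and of the other tested genes of the microglial, mural and astrocyte lists. Points are libraries of control (C), experimental (E) and intervention (I), with the mean ± SD of 3 libraries beside them; in Kcnk6 and Kcnj16 the control points lie below all others, while in Kcnk13 and Kcna5 the groups overlap.

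Genes that work with these channels moved in both directions. The 31 partner genes include anchors, clustering proteins, auxiliary subunits, pacemaker channels, ion pumps and chloride cotransporters, together with Kcnj10 and Kcnj13. Of 28 tested, 16 fell and 5 rose in the experimental against the control group, with a median log2 fold change of -0.49. Over all tested genes, 17.3% were called lower and 19.9% higher. Kv4 partners Dpp6 and Dpp10 and the Kv2 partner Amigo1 fell, the last from 17.5 ± 0.916 to 11.8 ± 0.670 FPKM. Ank3, which anchors Kv7 channels at the axon initial segment, fell from 8.48 ± 0.133 to 5.54 ± 0.575 FPKM. Lrrc55, an auxiliary subunit of the Kcnma1 channel, fell from 5.34 ± 0.383 to 2.89 ± 0.0990 FPKM. The neuronal cotransporter Slc12a5 fell from 74.0 ± 2.64 to 46.3 ± 0.634 FPKM. Those that rose included the glial pump subunit Atp1b2, the astrocyte channel Kcnj10, the vascular sulfonylurea receptor Abcc9 and the cotransporter Slc12a7. Slc12a7 reached 1 FPKM in the 3 experimental libraries alone (1.08, 1.08 and 1.24 FPKM). It thus entered the test through the group where it was high. Abcc9 was under 1 FPKM in all control libraries (0.962, 0.994 and 0.906 FPKM) and entered the test through the other groups. Kcnj10 rose from 40.3 ± 3.09 to 58.7 ± 2.16 FPKM (log2 fold change 0.53 ± 0.08, limma adjusted p = 0.000678), beside Kcnj16.

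The intervention group was set against the experimental group to ask which channel genes the intervention leaves at another level. By limma, 0 of the 66 tested genes passed, as did 0% of all 14570 tested genes. At an unadjusted p under 0.05 there were 3 channel genes, all higher, and 1352 genes in all. Kcnip4 was 1.18-fold higher in the intervention group (limma adjusted p = 0.389), Kcng4, a silent subunit, 1.24-fold (0.392) and Kcnk3 1.18-fold (0.511). Kcng4 was at 2.90, 2.80 and 2.65 FPKM in experimental and 3.67, 3.07 and 4.49 FPKM in intervention libraries. The groups did not overlap in Kcng4, Kcnip4 and Kcnb2, which were higher, and in 0 genes that were lower, against 5.07% and 8.16% of all tested genes. The smallest p among lower estimates were those of Kcnip2 (log2 fold change -0.22 ± 0.11, limma adjusted p = 0.619), Kcnk6 (-0.20 ± 0.11, 0.667) and Kcnip3 (-0.12 ± 0.10, 0.827). The median over the 66 genes was 0.04, and the 95% interval of a gene reached 0.318 to either side in the median case. The spread within groups therefore leaves a difference of that size within the interval of a typical gene.

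**Figure D4:**
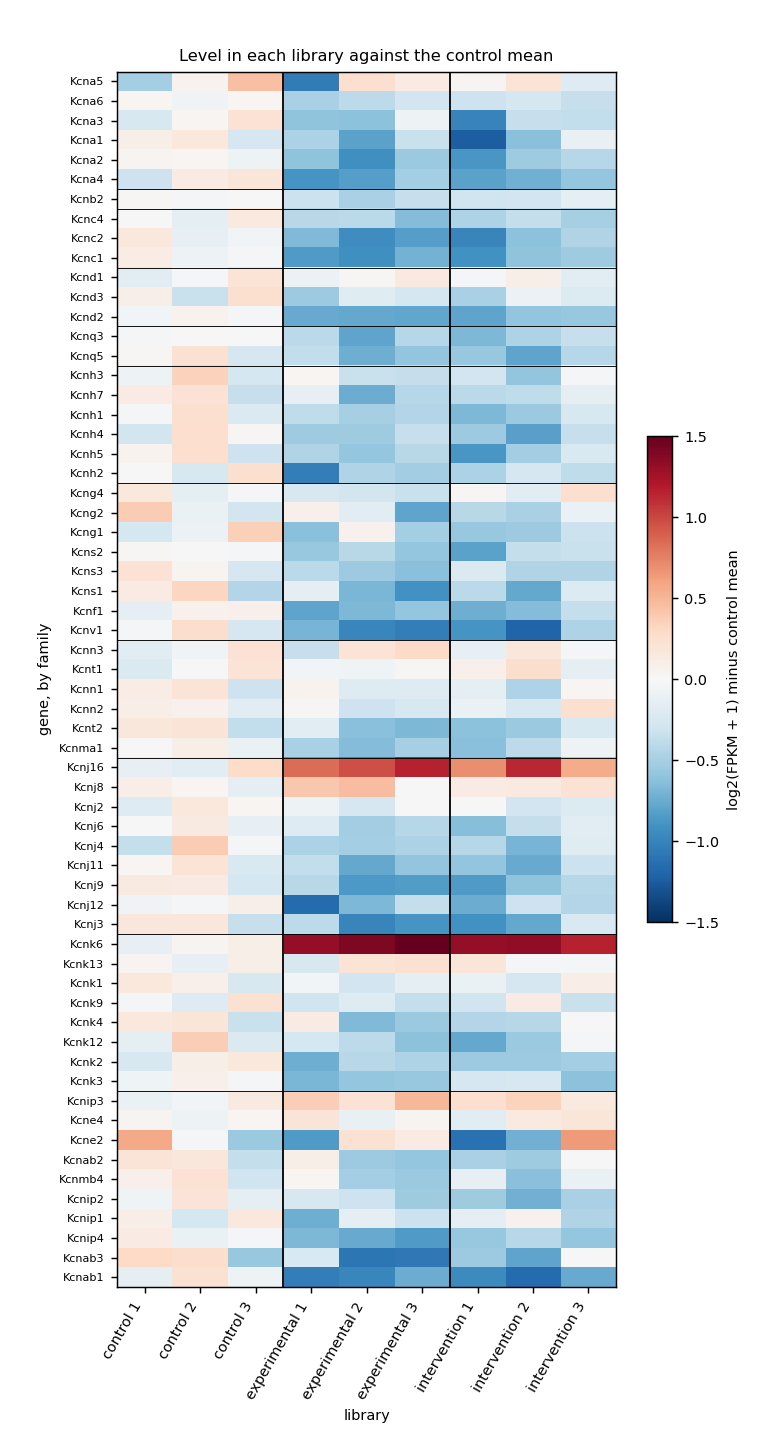
Colour gives log2(FPKM + 1) minus the mean of the 3 control libraries for 62 of the 66 tested genes (rows, by family) in the 9 libraries (columns). Most rows are blue in the experimental and intervention columns, and Kcnk6 and Kcnj16 are red there.

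The intervention group was compared with the control group to ask which channel genes differ between these groups. In limma, 24 of the 66 tested genes were lower and 2 higher, against 11.4% and 16.9% of all tested genes, with a median log2 fold change of -0.40. In TPM 36 were lower and 2 higher, and over all tested genes 3622 were lower and 1706 higher, in place of 1659 and 2461. Without control 2 the count of lower channel genes was 15, and over all tested genes 966 were lower, in place of 1659. This comparison shares its control libraries with the first, so that the values of both are given side by side and are not independent. Kcnd2 was 1.57-fold lower than control in the intervention group (limma adjusted p = 0.000248) and 1.70-fold lower in the experimental group. Kcnab1 was 1.94-fold lower (limma adjusted p = 0.000786), beside 1.89-fold, and Kcnc1 1.61-fold lower (0.00168), beside 1.77-fold. Kcnip2 was 1.498-fold lower (limma adjusted p = 0.00486), beside 1.28-fold, and Kcnv1 1.81-fold (0.00991), beside 1.87-fold. Kcnk6 was 2.40-fold higher (limma adjusted p = 4.06e-05), beside 2.76-fold, and Kcnj16 1.74-fold (0.00725), beside 1.98-fold. All these folds are ratios of FPKM + 1. The mean FPKM of Kcnk6 was 0.821 in control and 3.37 in intervention libraries, and that of Kcnj16 was 3.39 and 6.65. Kcnh5, named after its values were seen, passed here (limma adjusted p = 0.0482) and not in the first comparison (0.0585), and 7 of the 9 fits that left out a library lost the call (highest adjusted p 0.161).

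The families differed in summed level and in how it spread over libraries. Auxiliary subunits had the highest sum, at 163.1 to 207.3 FPKM in control, 133.2 to 170.9 FPKM in experimental and 132.5 to 167.2 FPKM in intervention libraries. Kv1 genes summed to 55.8 to 58.8 FPKM in control, 35.6 to 43.5 FPKM in experimental and 34.0 to 44.1 FPKM in intervention libraries. Kv4 genes summed to 30.6 to 33.3, 19.3 to 21.1 and 19.2 to 23.4 FPKM. In both families the control libraries lay above all others. The same held for silent subunits (lowest control sum 59.2 FPKM, highest other sum 48.6 FPKM) and inward rectifiers (109.9 and 102.6 FPKM). It also held for Kv10 to Kv12 genes (45.8 and 43.4 FPKM) and, more narrowly, for the channels opened by ions. Two-pore channels summed to 72.9 to 82.2 FPKM in control and 65.3 to 69.2 FPKM in experimental libraries, and intervention 3, at 75.5 FPKM, lay within the control range. The channels opened by ions summed to 34.8 to 37.8 FPKM in control, 28.6 to 31.0 FPKM in experimental and 29.6 to 34.3 FPKM in intervention libraries.

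**Figure D5:**
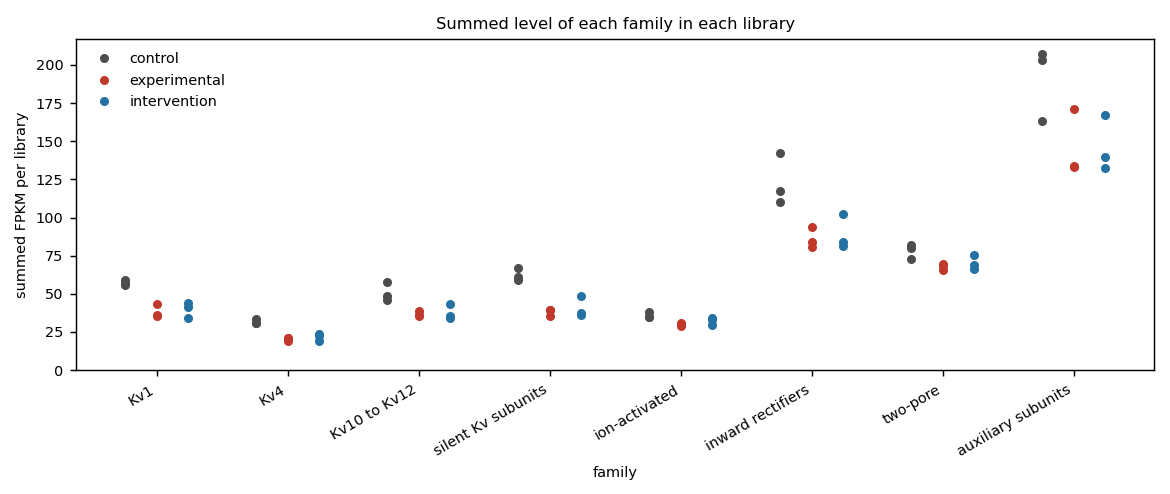
Summed FPKM (y axis, from 0) of 8 families of potassium channel genes (x axis) in each library; each point is 1 library, coloured by group. Control points lie above all others in Kv1, Kv4, Kv10 to Kv12, silent subunits, inward rectifiers and ion-activated channels. In two-pore channels and auxiliary subunits the control range overlaps another group.

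Libraries of 1 group were unequal in many members. Of the 66 tested genes, the lowest control value was in control 3 for 33 genes, the highest experimental value in experimental 1 for 34 genes, and the highest intervention value in intervention 3 for 45 genes. Cortical excitatory markers summed to 256.7, 276.3 and 170.6 FPKM in control, 267.0, 140.8 and 161.2 FPKM in experimental, and 155.7, 140.6 and 221.4 FPKM in intervention libraries. Control 3 was thus the lowest of its group in these markers, and experimental 1 and intervention 3 were the highest of theirs. The highest control value was in control 2 for 27 genes and the lowest experimental value in experimental 2 for 29, as in the marker sums. The lowest intervention value was in intervention 1 for 33 genes and in intervention 2 for 20, although intervention 2 had the lowest marker sum. Such counts over all tested genes are not given, so that the order may not be particular to channel genes. Other marker sums shared part of this order. That of the general neuronal markers was also highest in experimental 1 (731.2 FPKM) and intervention 3 (790.8 FPKM). Its lowest control library was control 2 (1036 FPKM, beside 1037 FPKM in control 3). Choroid plexus markers were lowest in control 3 and highest in intervention 3 within their groups, but lowest in experimental 1. The part of cortical tissue in the spread of the channel genes was not tested.

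Kcne2, a small auxiliary subunit known from the choroid plexus and named after its values were seen, varied more within groups than between them. It was at 3.94, 2.29 and 1.25 FPKM in control, 0.845, 2.89 and 2.61 FPKM in experimental, and 0.532, 1.02 and 4.16 FPKM in intervention libraries. The 5 choroid plexus markers summed to 905.3, 789.0 and 325.9 FPKM, 293.8, 765.3 and 746.9 FPKM, and 212.0, 260.3 and 1178 FPKM in the same libraries. Within each group the order of the libraries in Kcne2 was that in the marker sum.

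Of the 23 genes under the filter, 12 never reached 0.3 FPKM, among them Kcne1 and Kcnk18, and 6 were listed at 0 in 4 or more libraries. The 5 most abundant were Kcnk10 (0.800 FPKM over the 9 libraries), Kcnj14, Kcnh6, Kcnmb2 and Kcnj5. Kcnmb2, a beta subunit of the Kcnma1 channel, was at 0.857, 0.879 and 0.865 FPKM in control, 0.393, 0.614 and 0.426 FPKM in experimental, and 0.383, 0.455 and 0.606 FPKM in intervention libraries. Each control library was higher than the other 6 (exact permutation p = 0.1 against either group). Kcnk10 was at 0.756 ± 0.108 and 0.823 ± 0.170 FPKM, Kcnj14 at 0.723 ± 0.134 and 0.770 ± 0.200 FPKM, and Kcnh6 at 0.821 ± 0.145 and 0.664 ± 0.215 FPKM in control and experimental libraries. Kcnj5 was at 0.596 ± 0.251 and 0.349 ± 0.2997 FPKM (exact permutation p from 0.4 to 0.9 for these 4 genes). With no filter on low values, limma called 24 of all 89 genes lower and 5 higher in the experimental against the control group, among them Kcnn4 and Kcnq1 higher and Kcnmb2 lower. Over all 33586 entries of that fit, 1910 were called lower and 3191 higher. Kcnq1, named after its values were seen, was at 0.109 ± 0.0241 and 0.305 ± 0.0298 FPKM (limma adjusted p = 0.0216). Its exons overlap those of the antisense gene Kcnq1ot1, and 27 of the 89 genes have exons that overlap another gene. Such an overlap was present in 24 of the 66 tested genes and in 11 of the 30 tested genes called lower. Kcnab1, Kcnip4, Kcna6 and Kcnj9 were among the latter. Whether reads were counted by strand is not stated in the labels used here, so that these levels may include reads of the other gene.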

How the data were processed

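The deposited table gives 1 FPKM value per gene and library, calculated by the authors, per the file headers. RNeasy columns and a SMARTer library kit were used, per the labels' protocols. Per the submitters' processing notes reads were placed on mm10; no aligner, counter or annotation is named in the labels used here. Columns were matched to samples by title. Genes that reached 1 FPKM in at least 3 libraries were tested on log2(FPKM + 1), which understates the change of low genes. The 3 group means were fitted jointly over the 9 libraries (limma 3.58.1 under R 4.3.3, prior variance following intensity, 3.53 prior and 6 residual degrees of freedom; Benjamini-Hochberg over all tested genes, two-sided, threshold 0.05). The fit was tested on simulated data. Genes under the filter were tested by exact permutation, which cannot go under 0.1 with 3 against 3. Depth is unknown, so no counting interval is given. Members, lists and tests were chosen with earlier results of these data known.

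The genes named are up to 12 per direction and comparison with the smallest adjusted p (the 3 smallest p where none passed) and the most abundant of each family. The microglial, mural and astrocyte lists, the 5 most abundant genes under the filter, and any such gene with a 4-fold difference of group means and 0.3 FPKM are also named. Further members were named after their values were seen. Genes were matched by symbol to GENCODE M21, where all 89 had an entry. Alternatives were other pseudocounts, filters and scalings, the replicate block, the 2 groups alone, no trend, and each library left out. A further one, without control 1 and experimental 1, was chosen after seeing the data. Some genes that the naming rule or the lists would take are not reported here, and the figures leave them out.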

Additional observations from a re-analysis of the deposited data

How the results depend on the processing

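In the experimental against the control group, the count of lower genes stayed within 1.5 times of 30 under every alternative, from 23 to 41. It was 24 with no filter, 26 with the replicate block, 32 with quantile normalization, 41 in TPM and 23 to 35 with 1 library left out. The count of lower calls over all genes fitted moved too, from 2521 in the main fit. It was 1910 with no filter, 2036 with the block, 3189 with quantile normalization, 4661 in TPM and 1707 to 2575 with 1 library left out. The count of higher genes was 2 to 3 with 1 library left out, 5 with no filter and 2 in TPM. Over all genes fitted, higher calls numbered 2894 in the main fit. They were 2467 to 2911 with 1 library left out, 3191 with no filter and 2175 in TPM. In the intervention against the control group, lower genes numbered 24 and, with 1 library left out, 15 to 29. Over all tested genes these counts were 1659 and 850 to 1581. Without control 2 there were 15 lower channel genes and 966 lower genes in all. The intervention against the experimental group gave 0 channel genes under every alternative. Deviations from group means correlated from -0.536 to 0.209 over 9 pairs of same-numbered libraries, and from -0.534 to 0.493 over 18 pairs of different-numbered ones. Same-numbered libraries thus were not seen to deviate together more than others. Whether they share more than a number is not stated in the labels used here. With the replicate block Kcna3 was called lower between experimental and control (-0.43, limma adjusted p = 0.0463). Of all 33 channel genes called between experimental and control, 9 lost the call in at least 1 fit that left out a library. Between intervention and control, 10 of 26 did so. Named genes were chosen in part by a small adjusted p, and of 930 recomputed values of them 892 kept direction and side of the threshold. A further 20 lost their call, 7 gained one and 11 turned sign, all in genes that were not called. These were log2 fold changes between experimental and control. With 1 library left out in turn, Kcnt1 ran from -0.136 to 0.0714, turning without control 3, and Kcna5 from -0.480 to 0.18, turning without experimental 1 and, at 0.0001, without control 3. Kcne4 ran from -0.0378 to 0.118, turning without experimental 1, and was -0.0592 in TPM, -0.23 with quantile normalization and -0.0157 without control 1 and experimental 1. Kcnk13 ran from -0.0169 to 0.215, turning without experimental 2 (-0.0042) or experimental 3, and was -0.0770 in TPM and -0.0188 with quantile normalization. The cause was not tested. Depth is unknown, so what it limits cannot be stated.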
